A study of Mus musculus with 2 samples.

Results

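Mir202 and Mir140 are 2 of the 2202 miRNA hairpins that GENCODE release M21 annotates in the mouse. Both are associated with the supporting (Sertoli) cell lineage of the gonad and with the transcription factor SOX9, and were taken up here by name. They were followed in small RNA from WT and Hsp90α KO fetal testes. HSP90α, the protein targeted in the KO, is a heat shock chaperone abundant in male germ cells. Each genotype was represented by 1 library from 20 pooled whole testes of C57BL/6 fetuses at E16.5, without replicates, and KO below stands for the library labelled Hsp90α KO. The sequences counted as members were those of 16 nt or more that lay without mismatch, on the sense strand, inside either hairpin. They comprised 31 distinct sequences for Mir202 and 37 for Mir140, and none of them occurred in any other annotated hairpin. Levels are given as RPM, reads per 1000000 reads inside any annotated hairpin, of which there were 2523084 in WT and 2561491 in KO. Ratios have exact conditional (Clopper-Pearson) and shares Wilson intervals at 95%. These cover the sampling of reads, not PCR duplication or variation between animals, so they compare the libraries and not the genotypes.

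A miRNA hairpin is cut by Drosha and Dicer into a short duplex, and usually a single strand of it, the 5p or the 3p arm, is kept by an Argonaute protein. The bases from position 2 to 8 of the retained strand, the seed, select target mRNAs, so that a shift of the 5′ end changes the seed while a change at the 3′ end does not. Variants of this kind are called isomiRs. Mir202 is known for its gonadal expression and for its rise in the developing testis. Mir140 is best known from cartilage, where it depends on SOX9, and is also made in the fetal testis.

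Mir202 lies on the minus strand at chr7:139957689-139957760 of GRCm38, within the last of the 2 exons of the lincRNA Gm2044. Mir140 lies on the plus strand at chr8:107551244-107551313, within the intron of Wwp2, a ubiquitin ligase gene, that spans 107550136 to 107552276. It also falls inside the exon of a Wwp2 transcript that retains this intron. The hairpins are shown from GENCODE to place both arms, with the most read sequence of each arm in capitals.
Mir202: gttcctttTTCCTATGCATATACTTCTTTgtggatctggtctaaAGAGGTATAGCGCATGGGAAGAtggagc
Mir140: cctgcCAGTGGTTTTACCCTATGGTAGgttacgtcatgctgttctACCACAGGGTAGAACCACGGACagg

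The most read sequences carry the seeds to which the start positions below refer. They are written as deposited, with T for U and with bases 2 to 8 in capitals, and positions are counted from the 5′ end of the hairpin.
Mir202 5p, start 9: tTCCTATGcatatacttcttt
Mir202 5p, start 8: tTTCCTATgcatatacttcttt
Mir202 3p, start 45: aGAGGTATagcgcatgggaaga
Mir140 5p, start 6: cAGTGGTTttaccctatggtag
Mir140 3p, start 46: aCCACAGGgtagaaccacggac
Mir140 3p, start 45: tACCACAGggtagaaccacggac
The RefSeq entries used here (GRCm38.p6) lacked Mir140 5p and some other read arms, such as Mir143 3p. They held 3 mature entries for these hairpins.
mmu-miR-202-5p: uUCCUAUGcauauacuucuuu
mmu-miR-202-3p: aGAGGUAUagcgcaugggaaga
mmu-miR-140-3p: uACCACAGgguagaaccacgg
Both miR-202 entries are identical to the most read sequence of their arm. The miR-140-3p entry starts at position 45, 1 nt before the start most used in either library, and reads of exactly that sequence numbered only 14 in WT and 15 in KO.

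Mir202 had 5037 reads in WT and 5466 in KO, which is 1996 RPM in WT (95% Wilson interval 1942 to 2052) and 2134 in KO (2078 to 2191). Mir140 had 2039 and 2173 reads, or 808 RPM (774 to 844) and 848 RPM (813 to 885). Mir202 thus ranked 37th among the 635 hairpins with a read in WT and 34th of 602 in KO, and Mir140 ranked 67th and 63rd. For scale, Mir10b, the most abundant hairpin, stood at 558954 RPM in WT. In the order of WT levels, Mir871 and Mir381, next above and below Mir202, stood at 2007 and 1977 RPM, and Mirlet7e and Mirlet7g, next to Mir140, at 822 and 782. All of these neighbours lay inside the counting interval of the member beside them.

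The KO/WT ratio was 1.07 for Mir202 (95% Clopper-Pearson interval 1.03 to 1.11) and 1.05 for Mir140 (0.988 to 1.12). The level of Mir202 in the KO library therefore exceeded that in WT by slightly more than read sampling, and for Mir140 the interval included 1. That did not hold under 3 alternatives, where the interval for Mir140 left out 1: the median-ratio size factor (1.08, 1.01 to 1.15), inclusion of untemplated reads, whose last 1 to 3 bases are not in the hairpin (1.08, 1.03 to 1.13), and all library reads as the total (1.22, 1.15 to 1.30). Neither member passed 1.5-fold, against 7.17% of the 237 hairpins that had 100 reads or more in the sum of the libraries, where a sequence that fits several hairpins was counted in the one with most reads. The 17 hairpins behind this share were all lower in KO (7.17%), and 0% were higher. They were 14 hairpins with the Gm names of predicted genes, of 20 such hairpins tested, and Mir144, Mir495 and Mir668. The share fell to 1.95% when only sequences found in a single hairpin were counted, as all those of the members are, and rose to 39.96% when every fitting sequence was counted in each hairpin. Among the 107 hairpins with at least 1000 reads, 2.8% passed. The ratios of these 107 had a median of 0.988, with quartiles of 0.932 and 1.07, and 50 of them lay nearer to 1 than that of Mir202 and 39 nearer than that of Mir140. The closest ratios to that of Mir202 among these hairpins belonged to Mir342, Mir191 and Mir101a, and the closest to that of Mir140 to Mir34c, Mir30e and Mir423, by the difference in log2 KO/WT over the only 2 libraries. The plot of KO/WT against WT level shows both members within the main band of hairpins.

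**Figure D1:**
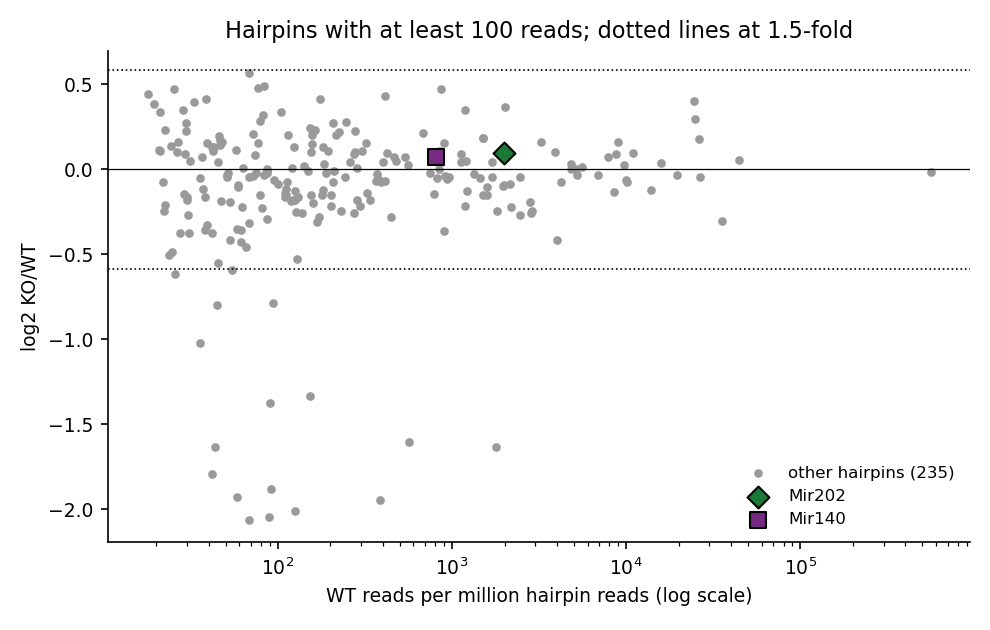
Log2 KO/WT (vertical) against WT RPM (horizontal, log scale) for the 237 hairpins with at least 100 reads, one point each, with dotted lines at 1.5-fold. Mir202 (diamond, 0.10) and Mir140 (square, 0.07) lie just above 0, and all 17 hairpins beyond the dotted lines are on the lower side.

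Lists of miRNAs known from particular cells were read beside the members. Since whole testes were used, fewer cells of a type and less RNA per cell cannot be told apart. In the lists a sequence was counted in every hairpin it fits. By that rule 39.96% of all hairpins with at least 100 reads passed 1.5-fold, against 7.17% with each sequence counted once. Of the supporting cell and cartilage list, Mir455, a cartilage miRNA, had 310 reads in WT and 344 in KO and a ratio of 1.09 (0.935 to 1.28), while Mir675, processed from H19, had only 14 and 29 reads. The 3 members of this list with at least 100 reads, Mir202 and Mir140 included, had ratios from 1.05 to 1.09, and 0 of 3 passed 1.5-fold. The germ cell list of the miR-290 and miR-302 clusters had 5 such members, with ratios from 1.11 to 1.48, a median of 1.35 and 0 past 1.5-fold. Mir295, its most abundant member, had 1045 and 1428 reads and a ratio of 1.35 (1.24 to 1.46). The summed level of this list was 803 RPM in WT and 1040 in KO, with 5 of its 14 hairpins at 0 in each library.

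The 5 blood cell miRNAs lay between 0.575 and 0.877, with a median of 0.822, and Mir144, an erythroid miRNA, was the only one past 1.5-fold, with 113 and 66 reads. Their summed level was 3564 RPM in WT and 3076 in KO, of which Mir486 alone held 2807 and 2460. The 6 mesenchymal and smooth muscle miRNAs lay between 0.811 and 1.32, with a median of 0.973 and none past 1.5-fold, but 3 of the 6 hairpins, Mir199a-1, Mir199a-2 and Mir199b, largely share their reads. With each read counted once this list stood at 61573 RPM in WT and 62784 in KO. The endothelial Mir126a had a ratio of 1.003, and its partner Mir126b had no reads. The 3 epithelial miRNAs with at least 100 reads lay between 0.715 and 1.03, and their whole list summed to 132 and 114 RPM. No skeletal muscle or neural miRNA of the lists reached 100 reads, and with each read counted once these lists stood at 19.8 and 17.2 RPM and at 16.6 and 14.4 RPM. The median ratio of all 237 hairpins was 0.974, with each sequence counted in 1 hairpin, unlike in the lists. By that count Mir199b had a ratio of 1.21, against 0.982 in its list. The part of the differences between lists in the members' ratios was not tested.

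Longer transcripts were also read, as fragments of 20 nt or more that matched a single gene on the sense strand. Such reads of Hsp90aa1, the targeted gene, numbered 2 in WT and 10 in KO, a KO/WT ratio, relative to all reads of the libraries, of 5.73 (1.22 to 53.8), and those of its paralog Hsp90ab1 numbered 28 and 26. The direction for Hsp90aa1 is not that of a loss. The part of the gene that the mutation removes was not known here, and so few fragments do not check the genotype. The reduction of other small RNAs that the authors reported for the KO testes was not examined here. Sox9, which directs Sertoli cell fate, had 5 and 2 reads, and Amh, a hormone of fetal Sertoli cells, had 24 and 12, with an interval of the ratio from 0.261 to 1.19. The host transcripts gave 7 and 6 reads for Gm2044 and 8 and 2 for Wwp2 outside the hairpins.

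The members used opposite arms, and each used 1 arm almost exclusively. Mir202 was read from its 5p arm in 4873 of 5037 WT reads and 5293 of 5466 KO reads, a 5p share of 96.7% (96.2 to 97.2) in WT and 96.8% (96.3 to 97.3) in KO. Its 5p arm outnumbered the 3p arm by 29.7 to 1 in WT and 30.6 to 1 in KO. Mir140 was read from its 3p arm in 1970 WT and 2088 KO reads, against 69 and 84 from the 5p arm. The 3p share was 96.6% (95.7 to 97.3) in WT and 96.1% (95.2 to 96.9) in KO, so that the 3p arm outnumbered the 5p arm by 28.6 to 1 and 24.9 to 1. With untemplated reads included, these ratios were 44.95 to 1 and 40.1 to 1.

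The odds of a 5p read in KO relative to WT were 1.03 (exact 95% interval 0.823 to 1.29) for Mir202 and 1.15 (0.820 to 1.61) for Mir140, and both intervals include 1. The 5p share of Mir202 differed between the libraries by 0.09 percentage points and that of Mir140 by 0.48. A difference of at least 5 points was found in 7.49% of the 187 hairpins with at least 100 reads in each library. Of these hairpins, 100 were read mostly from the 5p arm in WT and 87 mostly from the 3p arm. The favoured arm held a median of 97.5% of reads in WT, and 83 hairpins had a lower share than Mir202 and 80 a lower share than Mir140, so that the bias of both members was close to the median.

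**Figure D2:**
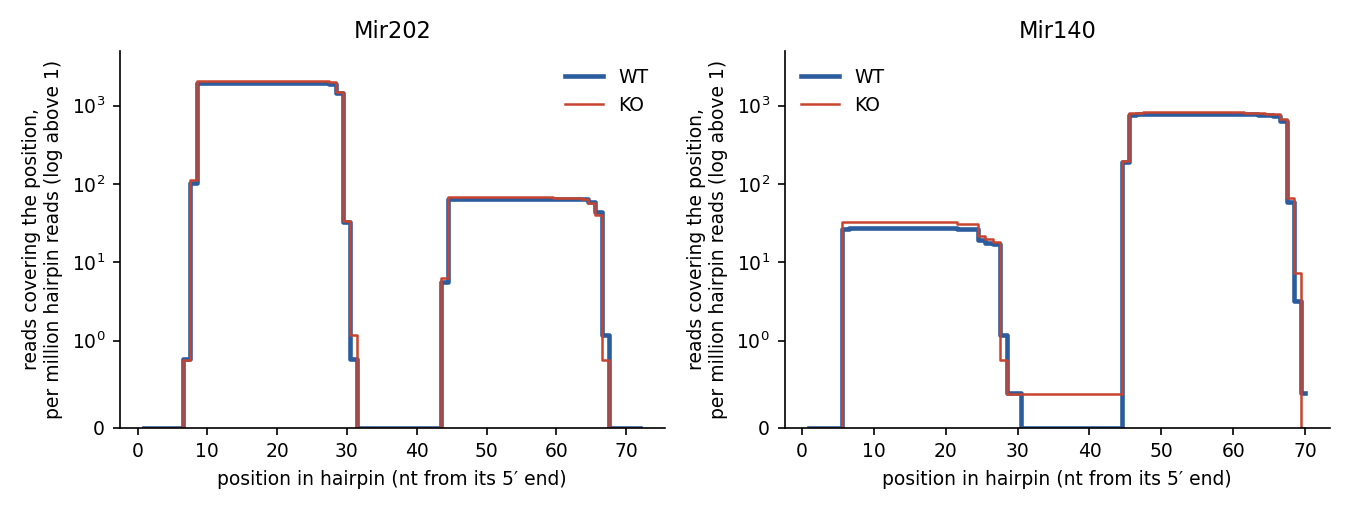
Exact reads covering each position of the Mir202 (left) and Mir140 (right) hairpins, in RPM on a scale that is logarithmic above 1 and linear below, against the position from the 5′ end, for WT (blue) and KO (red). Mir202 peaks over its 5p arm and Mir140 over its 3p arm, and the thin line across the Mir140 loop is 1 KO read.

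Levels by arm show the same division. Mir202 5p stood at 1931 RPM in WT and 2066 in KO, a ratio of 1.07 (1.03 to 1.11), and Mir202 3p at 65.0 and 67.5, a ratio of 1.04 (0.834 to 1.29). Mir140 3p stood at 781 and 815, a ratio of 1.04 (0.981 to 1.11), and Mir140 5p at 27.3 and 32.8, a ratio of 1.199 (0.862 to 1.67). The order of the arms was the same in both libraries, and the intervals of neighbouring arms did not overlap within a library. A read across the loop occurred once, for Mir140 in KO, with 40 nt from position 28 to 67. No loop read of Mir202 was found, which allows up to 1.19 RPM in WT and 1.17 in KO (3 reads). Antisense sequences of the hairpins amounted to 1 read, at Mir202 in KO.

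**Figure D3:**
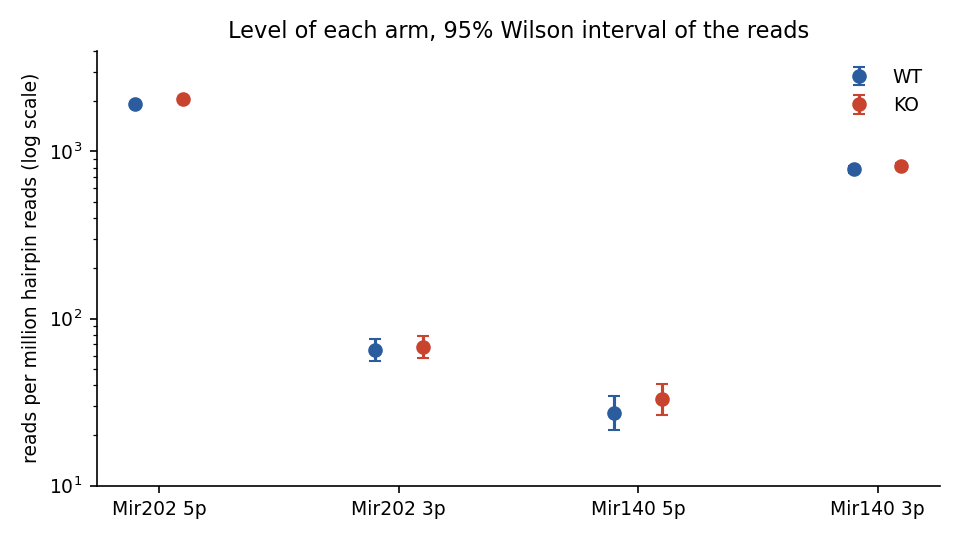
Level of each arm in RPM (exact reads, log scale) in WT (blue) and KO (red), with 95% Wilson intervals of the reads; intervals narrower than the points are hidden by them. Mir202 5p is the highest at 1931 and 2066 and Mir140 5p the lowest at 27.3 and 32.8.

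RNAfold gave the Mir202 hairpin a minimum free energy of -35.5 kcal/mol with 31 base pairs, and the Mir140 hairpin -39.1 kcal/mol with 30. In the predicted fold the first 2 bases of Mir202 5p pair with A, and the first bases of its 3p arm pair A with T and G with C. Mir140 5p begins with a C paired with G and an unpaired A, whereas its 3p arm, from position 46, begins with an A paired with T followed by 2 pairs of C with G. Another annotated hairpin, mmu-mir-7686, lies in the same Gm2044 exon, separated from Mir202 by 66 nt, and had 33 reads in WT and 43 in KO.

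The 5′ end of Mir202 5p was mostly fixed. Of the 4873 reads in WT, 4608 began at position 9 (94.6%, 93.9 to 95.2), and of the 5293 in KO, 4996 did (94.4%). Nearly all others started at position 8, with 259 WT reads (5.32%, 4.72 to 5.98) and 289 KO reads (5.46%, 4.88 to 6.11), and the odds of this start in KO relative to WT were 1.03 (0.863 to 1.23). Starting at 8 moves the seed from TCCTATG to TTCCTAT. Neither seed is shared over bases 2 to 8 with another mature miRNA of the RefSeq table. The 3p arm of Mir202 began at position 45 in 91.5% of its reads in WT and in 90.8% in KO. Its seed, GAGGTAT, shares bases 2 to 7 with 11 mature miRNAs, of which 9 are let-7 species and another is miR-98-5p, a member of the same family, and the full seed with mmu-let-7j. The 13 hairpins of those 11 miRNAs stood together at 10302 RPM in WT and 9111 in KO, against 65.0 and 67.5 for Mir202 3p. The former levels count reads of either arm, so not all of these reads carry the shared bases.

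The 5′ end of Mir140 3p was divided. In WT, 1463 of 1970 reads began at position 46 (74.3%, 72.3 to 76.1), and in KO 1555 of 2088 (74.5%, 72.6 to 76.3). Position 45, the RefSeq start, was used by 474 WT reads (24.1%, 22.2 to 26.0) and 507 KO reads (24.3%, 22.5 to 26.2). The odds of position 46 in KO relative to WT were 1.01 (0.876 to 1.17). Most reads of this arm thus carried the seed CCACAGG, which no other mature miRNA of the table has, and the minor form carried ACCACAG, which is shared with mmu-miR-497b, a hairpin without reads. The 5p arm started at position 6 in 67 of 69 WT reads and 83 of 84 KO reads, and its seed AGTGGTT is shared with mmu-miR-876-3p, whose hairpin had 0 WT reads and 1 KO read.

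Among the 220 arms with at least 100 reads in each library, the most used start held a median of 98.5% of reads in WT and 98.2% in KO, and 34 arms had a lower share than Mir140 3p in each library. Mir202 5p had 73 arms below it in WT and 70 in KO. The most used start was not the RefSeq start in 8.38% of the 191 arms with a RefSeq entry in WT and in 7.33% in KO, and Mir140 3p was among them in both. The share of the main start moved by at least 5 percentage points between the libraries in 7.27% of the 220 arms, and in none of the 3 arms of the members that were deep enough.

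Among exact reads, the 3′ end of Mir202 5p was less fixed than its 5′ end, whereas the main start and the main end of Mir140 3p held similar shares. In WT, Mir202 5p ended at position 29 in 72.3% of its reads (71.0 to 73.5) and at position 28 in 23.4% (22.2 to 24.6). In KO these ends held 70.6% (69.4 to 71.8) and 24.7% (23.6 to 25.9). The odds of position 29 in KO relative to WT were 0.923 (0.846 to 1.01), so that a change was not detectable. Reads of 21 nt made up 70.4% of the arm in WT and 69.6% in KO. The main end of Mir140 3p, position 67, held 73.2% of its exact reads in WT and 73.6% in KO, and 67.9% and 68.6% were 22 nt long. These shares leave out the untemplated reads of this arm, 1896 in WT and 2125 in KO beside 1970 and 2088 exact reads. Position 69 was the only end of either main arm whose odds interval left out 1, with 7 reads in WT and 19 in KO (2.57, 1.03 to 7.26).

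Among exact reads, the 3′ end varied with the 5′ end. For Mir140 3p, reads that started at 46 ended at 67 in 79.8% of cases in WT (77.7 to 81.8) and 80.5% in KO (78.4 to 82.3), whereas reads that started at 45 did so in 53.0% (48.5 to 57.4) and 52.5% (48.1 to 56.8). The odds of that end were 3.51 times higher for start 46 in WT (2.80 to 4.41) and 3.73 times in KO (2.99 to 4.65). In Mir202 5p the main end was likewise more frequent behind the main start, with odds of 1.44 in WT (1.09 to 1.89) and 1.96 in KO (1.53 to 2.51). In both arms, reads that began 1 nt earlier also ended 1 nt earlier more often. For Mir140 3p, 35.2% of WT reads from 45 ended at 66, against 7.93% of those from 46. For Mir202 5p, 31.7% of WT reads from 8 ended at 28, against 22.98% of those from 9.

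**Figure D4:**
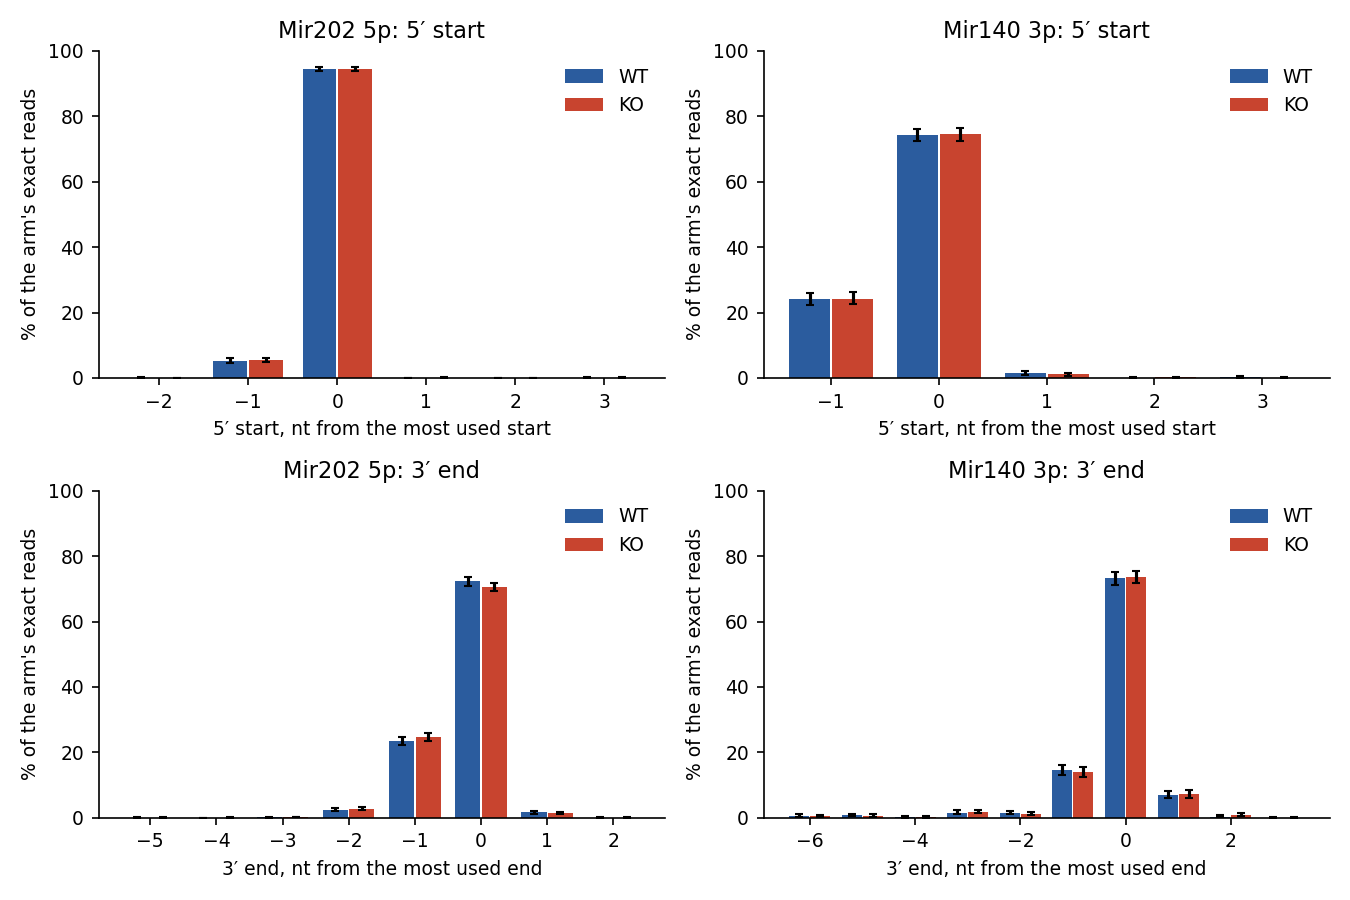
Share of exact reads (%) by 5′ start (top) and 3′ end (bottom), in nt from the most used position, for Mir202 5p (left) and Mir140 3p (right) in WT (blue) and KO (red), with 95% Wilson intervals. The main start holds over 94% of Mir202 5p reads but about 74% of Mir140 3p reads, and WT and KO bars are alike in height.

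Single isomiRs that match the hairpins exactly varied little between the libraries. The most read sequence of Mir202, the RefSeq form, had 3349 reads in WT and 3571 in KO and a ratio of 1.05 (1.002 to 1.10). The form shorter by its last base had 1059 and 1197 reads and a ratio of 1.11 (1.02 to 1.21). Over the 7 exact Mir202 sequences with at least 100 reads the ratio ranged from 0.927 to 1.33, with intervals that left out 1 for the former pair only. The most read sequence of Mir140 had 1168 and 1251 reads and a ratio of 1.06 (0.973 to 1.14). Over the 5 exact Mir140 sequences of that depth the ratio ranged from 0.943 to 1.08, with every interval including 1. Untemplated forms are not among them, such as this sequence with an added T, with 971 reads in WT and 1135 in KO. For all Mir140 3p reads with only T added the ratio was 1.13 (1.05 to 1.21). Of the 31 sequences of Mir202, 22 occurred in both libraries, and of the 37 of Mir140, 27 did. For each hairpin 8 sequences were read only once.

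Exact matching left out reads whose last 1 to 3 bases are not in the hairpin, and for Mir140 these were about as many as the exact reads. With a matching part of at least 18 nt, 1896 WT reads and 2125 KO reads of Mir140 3p had such an untemplated end, 49.0% (47.5 to 50.6) and 50.4% (48.9 to 51.9) of the exact and untemplated reads together. For Mir202 5p there were 288 and 308, or 5.58% (4.99 to 6.24) and 5.50% (4.93 to 6.13). The median of the 237 hairpins was 14.04% in WT and 13.8% in KO, and 221 of them in WT and 222 in KO had a lower share than Mir140. Mir202 had 60 and 57 hairpins below it. A wrongly read base among the last 3 is counted here too.

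The added bases differed as well. Of the Mir140 3p reads with an untemplated end, 71.1% in WT (69.0 to 73.1) and 72.6% in KO (70.7 to 74.5) had only T added, that is, uridine in the RNA, and 18.04% and 17.5% only A. For Mir202 5p, 85.1% in WT (80.5 to 88.7) and 82.8% in KO (78.2 to 86.6) had only A added and 8.33% and 7.47% only T. The most frequent extended forms are shown with the seed in capitals, the added base being the last.
Mir140 3p with T: aCCACAGGgtagaaccacggact
Mir202 5p with A: tTCCTATGcatatacttcttta
The former had 971 reads in WT and 1135 in KO, beside 1168 and 1251 for the same sequence without T. The most read Mir202 sequence with T had only 22 and 21 reads beside 3349 and 3571 without it. Over all hairpins the share of reads with only T added had a median of 4.15% in WT and 4.13% in KO, and for Mir140 it was 34.5% and 36.1%, above 229 of the 237 hairpins in each library.

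Untemplated ends of Mir140 3p were more frequent the further downstream the read began, over positions 45 to 47. In WT they made up 41.5% (38.1 to 44.9) of the reads from position 45, 49.2% (47.4 to 51.0) from 46 and 83.6% (77.2 to 88.5) from 47, and in KO 41.1%, 50.7% and 88.0%. Position 47, which held 1.37% of exact WT reads, held 4.27% when the untemplated reads were included. The KO/WT ratio was 1.10 (1.04 to 1.18) for all untemplated reads of Mir140 3p and 1.13 (1.05 to 1.21) for those with only T, beside 1.04 (0.981 to 1.11) for exact reads. With untemplated reads included, Mir202 had 5346 reads and Mir140 3952 in WT, so that the ratio of Mir202 to Mir140 reads was 1.35, against 2.47 with exact reads. In KO it was 1.34, against 2.52. Reads are not molecules, since ligation differs between sequences.

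**Figure D5:**
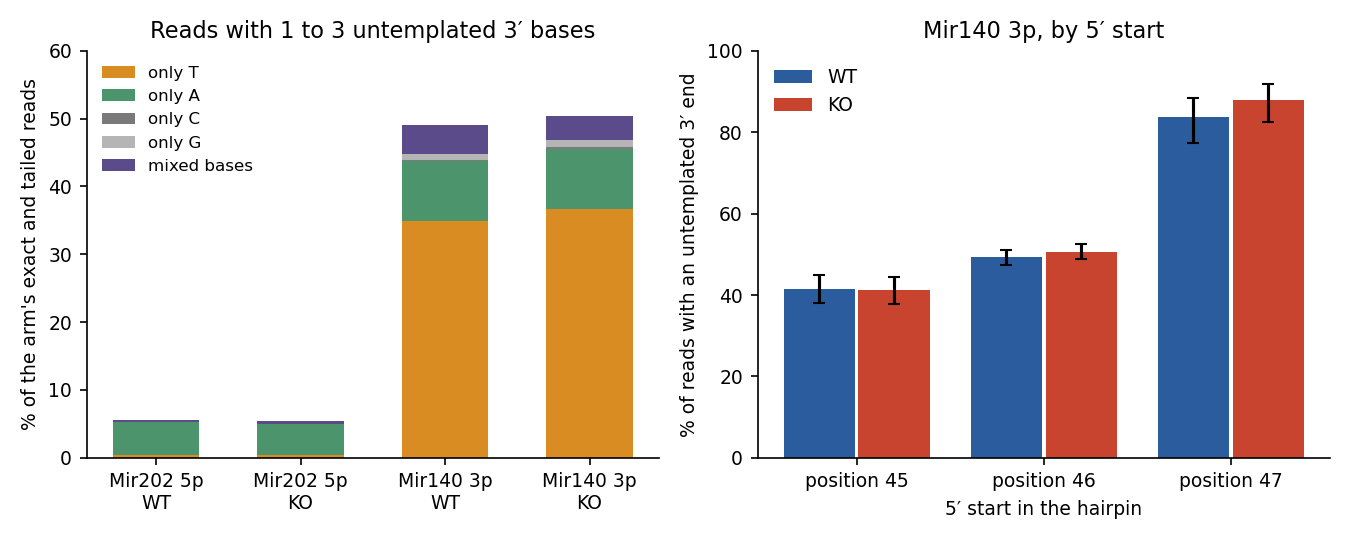
Left, share (%) of exact and untemplated reads of Mir202 5p and Mir140 3p whose last 1 to 3 bases are not in the hairpin, by added base and library. Right, the same share for Mir140 3p by 5′ start in the hairpin in WT (blue) and KO (red), with 95% Wilson intervals, from 41.5% at position 45 to 83.6% at position 47 in WT.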

How the data were processed

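Small RNA was prepared with the TruSeq Small RNA kit and sequenced on MiSeq as single-end reads. The authors clipped the adaptor and deposited, per library, the raw read count of every distinct sequence of 11 to 48 nt, without mapping or normalization. The libraries held 6409305 WT and 5589326 KO reads, so that 3 reads correspond to 1.19 and 1.17 RPM. The labels name mm9, but coordinates here are GRCm38. Sequences of at least 16 nt were matched to the 2202 hairpins of GENCODE M21. A read was given to the 5p or 3p arm by its midpoint, or to the loop if it reached over 5 nt past the centre on both sides. The members and lists were chosen with earlier results of these data known. The named genes follow a rule: the members with the 5 most read sequences of each arm, Mir10b, the 3 hairpins with the nearest ratio, neighbours in level, miRNAs with a shared seed and the listed cell type miRNAs. A sequence fitting several hairpins was counted in the one with most reads for the background, and in each for the lists, so that paralogs share reads there, while summed list levels count each read once. The lists use the GENCODE names Mir292, Mir142 and Mir486. The counting of shared sequences, the fragments, mmu-mir-7686 and untemplated ends by start were chosen after the data were seen. Alternatives were other totals, length and count minimums, untemplated ends and distinct sequences. Only counting intervals were computed, and no p-value, since each genotype has 1 library. The scripts were tested on counts simulated by read sampling alone for 458 hairpins, with every fitting sequence counted in each. Of the intervals, 95.6% held the simulated ratio, which checks the code and not variation beyond read sampling. Python 3.11.15, numpy 2.4.6, scipy 1.17.1, matplotlib 3.10.9 and ViennaRNA 2.7.2 were used.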

Additional observations from a re-analysis of the deposited data

How the results depend on the processing

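With 1 library per genotype no result has a replicate check. No paired analysis was possible because there are no replicates to pair. Relative to all library reads, the KO/WT ratio rose to 1.24 for Mir202 and 1.22 for Mir140, as hairpin reads made up 39.4% of the WT and 45.8% of the KO library. Counting each distinct sequence once gave ratios of 1.23 (0.689 to 2.19) for Mir202 and 1.18 (0.701 to 1.99) for Mir140. The members themselves hardly differed, with 26 distinct sequences in WT and 27 in KO for Mir202 and 32 in each for Mir140. These ratios thus mostly reflect a smaller total of distinct hairpin sequences in KO. The 5p shares by this count were 65.4% in WT and 62.96% in KO for Mir202 and 28.1% and 25.8% for Mir140. Adding untemplated reads lowered the 5p share of Mir140 to 2.18% in WT and 2.43% in KO. The share of hairpins past 1.5-fold was 2.80% with at least 1000 reads and 29.3% with at least 1 read in each library. With alternatives chosen after seeing the data, it was 1.95% for sequences found in 1 hairpin and 39.96% when every fitting sequence counted in each hairpin. The other alternatives, among them the median-ratio size factor, 20 to 23 nt reads as the total, the total without Mir10b and a minimum of 18 nt, kept each value inside its main interval. For Mir140, however, the interval of the ratio left out 1 with that size factor (1.08, 1.01 to 1.15) and with untemplated reads (1.08, 1.03 to 1.13), as with all library reads as the total. Depth limits the minor arms, with 69 and 84 reads for Mir140 5p and 164 and 173 for Mir202 3p.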
